A study of Mus musculus with 7 samples.

Results

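The 6 genes described here, Iigp1, Tgtp1, Ifi47, Irgm1, Igtp and Irgm2, encode immunity-related GTPases (IRGs) of the mouse. They were taken by symbol from the 27179 genes counted in 7 libraries of sorted mouse CD8 dendritic cells, and all 6 passed the filter on low counts that left 10863 genes for testing. A further 12 genes of the family were found in the count files and are described beside them.

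All cells were CD8 dendritic cells of C57BL/6 mice, isolated by fluorescence-activated cell sorting and profiled by sequencing of RNA. The CpG CD103 high group held 2 libraries of cells with a high level of the integrin chain CD103 and a label of CpG treatment, CpG being DNA motifs that engage Toll-like receptor 9. The CD103 low group held 2 libraries and the CD103 negative group 3, all from untreated cells. Both CpG CD103 high libraries and CD103 negative replicates 1 and 2 carry a date in 2012, and CD103 negative replicate 3 and both CD103 low libraries a date in 2013. High CD103 and CpG treatment came together in the same libraries and cannot be told apart. No source used here gives the tissue, the CpG dose, the time between treatment and sorting or the age of the mice. The samples are called biological replicates in the series' design text, and whether they came from separate animals or pools is not stated.

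IRG proteins are GTPases that interferons induce strongly in mouse cells. They gather on the membrane of vacuoles that hold intracellular parasites and bacteria and break them open. The effector subgroup, to which Iigp1 (Irga6), Tgtp1 (Irgb6) and Ifi47 (Irgd) belong, is named GKS after residues of its nucleotide-binding loop. The regulatory subgroup, Irgm1, Igtp (Irgm3) and Irgm2, is named GMS, because methionine takes the place of lysine in that loop. GMS proteins sit on the membranes of the cell's own organelles and hold the GKS proteins inactive there. In dendritic cells the GTPases have been studied as part of the response to vacuolar pathogens.

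The coding stretch of the nucleotide-binding loop, which sets the subgroups apart, is shown for the members on chromosome 11. Each stretch of 24 bases was read from the longest open reading frame of the GENCODE transcripts on GRCm38, and the capitals mark the codon that is AAG (lysine) in GKS genes and ATG (methionine) in GMS genes.
Tgtp1: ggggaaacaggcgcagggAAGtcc
Ifi47: gggcagtctgggactggcAAGtcc
Irgm1: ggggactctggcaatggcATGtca
Igtp: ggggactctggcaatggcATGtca
Irgm2: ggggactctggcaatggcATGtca
The stretch begins at base 187 of the open reading frame in Tgtp1, 241 in Ifi47, 247 in Irgm1 and Irgm2 and 271 in Igtp. It is identical in the 3 GMS genes. Over the whole open reading frame Igtp and Irgm2 shared 80.2% of 1161 aligned bases, and Irgm1 shared 76.3% with Igtp and 75.1% with Irgm2. Tgtp1 and its neighbour Tgtp2 differed at 4 of 1248 bases (99.7% identical). Reads that fall on the shared sequence cannot be given to one copy with certainty, and no source used here says how such reads were counted, so the levels of Tgtp1 and Tgtp2 are uncertain as separate values.

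Several of the promoters, but not all, carry sequence features by which interferon signals are known to reach such genes. The stretch from 120 bases before the gene's start to the last base before it is shown for the genes that shared the arrangement described below and for Irgm1. Capitals mark matches to the gamma-activated site (GAS, TTCNNNGAA) and to the core of the interferon-stimulated response element (ISRE, GAAA and again GAAA after any 2 bases, bound by IRFs). The sequences are from RefSeq on GRCm38.p6, each on the strand of its gene.
Tgtp1 (minus strand, chr11:48992247-48992366): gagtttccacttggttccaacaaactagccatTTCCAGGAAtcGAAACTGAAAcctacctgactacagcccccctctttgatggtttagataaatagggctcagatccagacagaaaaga
Tgtp2 (minus strand, chr11:49064213-49064332): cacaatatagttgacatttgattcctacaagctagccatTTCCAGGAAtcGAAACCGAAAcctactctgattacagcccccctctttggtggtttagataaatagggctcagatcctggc
Gm12185 (minus strand, chr11:48927183-48927302): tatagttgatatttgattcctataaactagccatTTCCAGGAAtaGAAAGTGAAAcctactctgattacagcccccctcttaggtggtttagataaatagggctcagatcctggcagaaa
Igtp (plus strand, chr11:58199436-58199555): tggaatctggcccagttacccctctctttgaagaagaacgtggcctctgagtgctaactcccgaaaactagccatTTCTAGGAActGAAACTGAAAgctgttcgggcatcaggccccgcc
Irgm2 (plus strand, chr11:58214857-58214976): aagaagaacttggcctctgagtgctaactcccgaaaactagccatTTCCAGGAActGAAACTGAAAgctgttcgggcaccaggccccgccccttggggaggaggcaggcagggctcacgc
Irgm1 (minus strand, chr11:48871421-48871540): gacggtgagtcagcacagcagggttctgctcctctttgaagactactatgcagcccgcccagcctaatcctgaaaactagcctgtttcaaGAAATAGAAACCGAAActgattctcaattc
In Tgtp1, Tgtp2, Gm12185, Igtp and Irgm2 a GAS match was followed by an ISRE core after 2 bases. Irgm1 held a pair of ISRE cores that overlap each other, and the window of Ifi47, from 250 bases before its start to 50 after it, held neither set of letters.

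Windows of that length were searched on both strands for every gene with one. A GAS match stood in 8.30% of 32851 promoter windows and an ISRE core in 3.44%, and both stood in 0.454%. Of the 12 IRG genes with a window, 6 held a GAS match and 8 an ISRE core, and of the 5 members with a window 3 and 4 did. A GAS match with the ISRE core on the same strand after exactly 2 bases stood in 5 of the 32851 windows, and all 5 belonged to IRG genes, the ones shown above. The spacing was searched for after it was seen in the members, and the 5 genes are related copies, so these counts describe the family and test nothing. Iigp1 was not part of this search.

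In GRCm38 the members lie in 2 groups on chromosome 11, apart from Iigp1, which lies on chromosome 18. Irgm1 spans bases 48865245 to 48871420, Tgtp1 48985329 to 48992246 and Ifi47 49076587 to 49096987. Igtp spans 58199556 to 58207592 and Irgm2 58214977 to 58222783. The lncRNA gene Gm42074 overlaps Tgtp1 and the pseudogene Gm12188 overlaps Ifi47 in RefSeq. Neither has a row in the count files, and no source used here gives the strand setting of the counting.

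Total counts ran from 4474211 to 4629181 per library, where 3 counts, the limit that a count of 0 allows, equal 0.648 to 0.671 CPM (counts per 1000000 counts of the library). That limit covers counting error alone. The dendritic cell label held in the markers, with all 14 markers of type 1 conventional dendritic cells counted and their summed level between 16787 and 25073 CPM. The CD103 labels were not checked here. In bulk RNA, more cells that express a gene and more RNA per cell cannot be told apart.

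All 6 IRG genes were higher in CpG CD103 high than in CD103 negative cells. The fold was 13.5 in the effector Iigp1 and 9.91 in the effector Tgtp1, and between 2.18-fold and 3.18-fold in the other members. Of all genes tested 26.3% were called in this comparison, 14.5% in the upward direction, where a call is a Benjamini-Hochberg adjusted p under 0.05 in edgeR's quasi-likelihood test with group and date as terms. The median log2 fold change was 1.54 over the 6 members and -0.01 over all genes tested. For all 6 members both CpG CD103 high libraries lay above all 5 untreated libraries, which held for 16.3% of the genes tested.

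**Figure D1:**
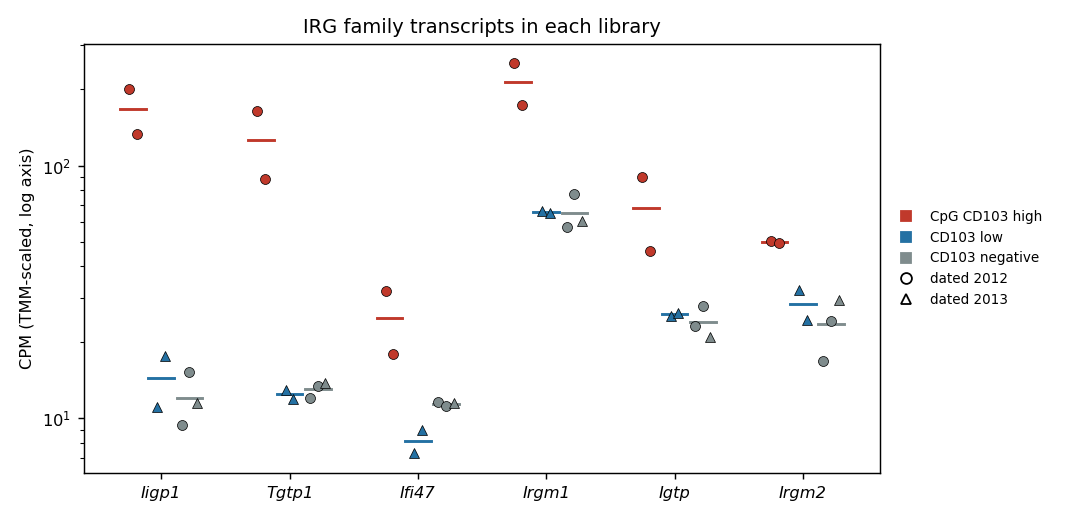
CPM of the 6 IRG genes on a log axis, effectors left and regulators right, 1 point per library, with group means as lines and the labelled year as the point's shape. The red points of CpG CD103 high cells lie above the 5 untreated libraries for every gene, by the widest margin for Iigp1 and Tgtp1.

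Iigp1, a GKS effector that disrupts the vacuole of Toxoplasma, had 201 and 134 CPM in CpG CD103 high libraries, against 11.1 and 17.7 CPM in CD103 low and 9.44, 15.3 and 11.5 CPM in CD103 negative libraries. The lower CpG CD103 high library still stood 7.55-fold above the highest untreated one. Relative to CD103 negative cells the log2 fold change was 3.75 (SE 0.27, adjusted p = 2.84e-05).

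Tgtp1, a GKS effector that is among those recruited early to such vacuoles, had 164 and 88.5 CPM in CpG CD103 high libraries, against 12.9 and 12.0 CPM in CD103 low and 12.1, 13.4 and 13.8 CPM in CD103 negative libraries. The 5 untreated libraries lay close together, and the CpG CD103 high libraries differed from each other by 1.85-fold. Over CD103 negative cells Tgtp1 had a log2 fold change of 3.31 (SE 0.28, adjusted p = 6.13e-05).

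Ifi47, the third GKS gene, had 31.9 and 17.9 CPM in CpG CD103 high libraries, against 7.27 and 8.97 CPM in CD103 low and 11.6, 11.2 and 11.5 CPM in CD103 negative libraries. The groups did not overlap, but the lower CpG CD103 high library stood 1.54-fold above the highest untreated one. Its log2 fold change over CD103 negative, 1.13 (SE 0.27, adjusted p = 0.0127), was the smallest among the members. The call was lost when CpG CD103 high replicate 1 was left out (0.65, adjusted p = 0.0799), and likewise for CD103 negative replicate 1 (1.15, adjusted p = 0.0587) and replicate 2 (1.10, adjusted p = 0.0658).

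Irgm1, the GMS regulator whose loss leaves mice open to infection with many vacuolar pathogens, had 253 and 174 CPM in CpG CD103 high libraries, against 66.3 and 64.8 CPM in CD103 low and 57.1, 77.2 and 60.4 CPM in CD103 negative libraries. The CpG CD103 high libraries were the highest, and the 5 untreated ones overlapped between groups. Irgm1 rose over CD103 negative cells by a log2 fold change of 1.67 (SE 0.18, adjusted p = 0.000246).

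Igtp, a GMS regulator found at the endoplasmic reticulum, had 90.1 and 45.9 CPM in CpG CD103 high libraries, against 25.4 and 26.2 CPM in CD103 low and 23.3, 27.8 and 21.1 CPM in CD103 negative libraries. Its CpG CD103 high libraries stood furthest apart among the members, by 1.96-fold. For Igtp the log2 fold change over CD103 negative cells was 1.41 (SE 0.27, adjusted p = 0.00418), and it moved to 0.84 without CpG CD103 high replicate 1, where it was still called (adjusted p = 0.00842).

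Irgm2, a GMS regulator of the Golgi and other membranes, had 50.4 and 49.5 CPM in CpG CD103 high libraries, against 32.2 and 24.6 CPM in CD103 low and 16.9, 24.4 and 29.4 CPM in CD103 negative libraries. The CpG CD103 high libraries agreed closely, while the untreated ones spread over 1.91-fold and the 3 highest of these were the libraries dated 2013. Irgm2 rose over CD103 negative cells by a log2 fold change of 1.27 (SE 0.19, adjusted p = 0.00108).

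Within the libraries dated 2012 alone, all 6 members were called higher in CpG CD103 high than in CD103 negative cells. The log2 fold changes were 3.75 for Iigp1, 3.31 for Tgtp1, 1.13 for Ifi47, 1.67 for Irgm1, 1.41 for Igtp and 1.27 for Irgm2. That subset holds 2 libraries of each group. With the date as a term, the main fold changes over CD103 negative cells come from these same libraries. Their match was thus set by the design and adds no evidence.

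The CpG CD103 high replicates differed in the same direction for every member. All 6 were higher in replicate 1, and for 5 of them the log2 ratio of replicate 1 to replicate 2 was at least 0.5, from 0.54 for Irgm1 to 0.97 for Igtp. Irgm2 was the exception, with 0.02. Over all genes tested the median ratio was -0.00 on the log2 scale (0.5 CPM added to each value), 49.7% of genes were higher in replicate 1, and 5.56% had a log2 ratio of at least 0.5. The summed level of the 6 members was 791 and 510 CPM in CpG CD103 high libraries, against 155 and 154 CPM in CD103 low and 130, 169 and 148 CPM in CD103 negative libraries.

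**Figure D2:**
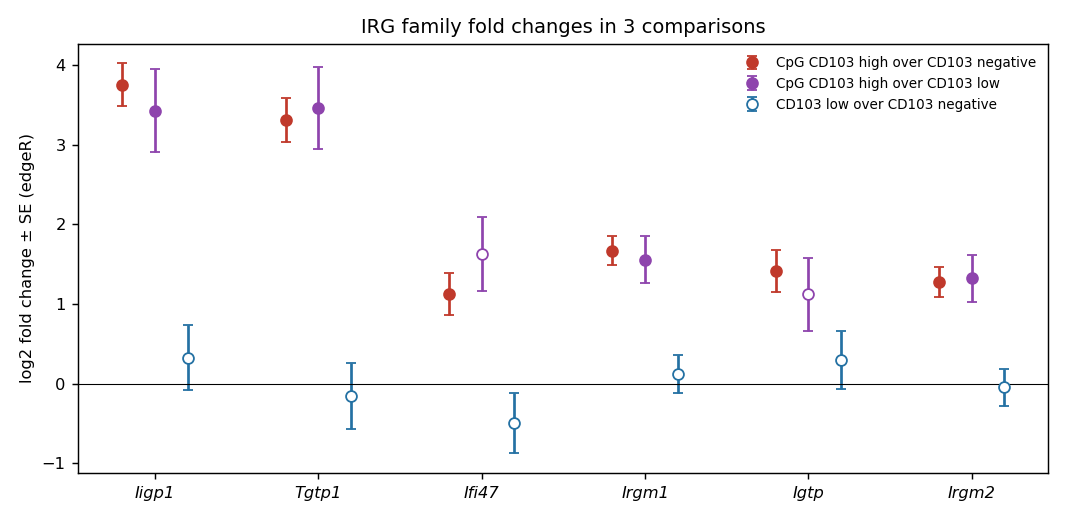
Log2 fold change with its standard error for each member in the 3 comparisons, with filled points for an adjusted p under 0.05. CpG CD103 high over CD103 negative is filled for all 6 genes, CpG CD103 high over CD103 low for 4, and CD103 low over CD103 negative for 0.

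CpG CD103 high cells also stood above CD103 low cells, the untreated population that carries some CD103. Of the 6 members 4 rose, where 6.22% of all genes tested were called, 3.44% higher and 2.78% lower. The log2 fold change was 3.43 for Iigp1 (SE 0.52, adjusted p = 0.00705), 3.46 for Tgtp1 (SE 0.52, adjusted p = 0.0064), 1.55 for Irgm1 (SE 0.29, adjusted p = 0.0171) and 1.32 for Irgm2 (SE 0.30, adjusted p = 0.0305). Ifi47, at 1.63 (SE 0.46, adjusted p = 0.069), and Igtp, at 1.12 (SE 0.46, adjusted p = 0.172), did not pass. With the date as a term this comparison runs through CD103 negative cells of both dates and rests on CD103 negative replicate 3 for the later date. The calls of Irgm1 and Irgm2 were lost without CD103 negative replicate 1 and without either CD103 low library, and that of Irgm2 also without CpG CD103 high replicate 2, with DESeq2 (adjusted p = 0.0639) and without the date term (0.81, adjusted p = 0.0687). Without the date term Igtp (adjusted p = 0.0188) and Ifi47 (1.62, adjusted p = 0.0102) were called, and both were also called when CpG CD103 high replicate 2, or CD103 negative replicate 3 together with the date term, was left out.

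CD103 low and CD103 negative cells, both untreated, were not told apart by any member. Of the 6 members 0 were called, where 0.138% of all genes tested were, 0.0552% higher and 0.0829% lower, and 0 had an unadjusted p under 0.05 in edgeR, where 797 of 10863 genes did. DESeq2 and limma voom also called 0 members. The log2 fold change of CD103 low over CD103 negative was 0.32 for Iigp1 (SE 0.41), -0.15 for Tgtp1 (SE 0.42), -0.50 for Ifi47 (SE 0.38), 0.12 for Irgm1 (SE 0.24), 0.29 for Igtp (SE 0.37) and -0.05 for Irgm2 (SE 0.23). Because the date leaves CD103 negative replicate 3 as the control of this comparison, errors of this size do not show that the levels are alike.

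Set against gene length, the order of the members differed between treated and untreated cells. Levels per length are given as RPKM, reads per kilobase of the counted length and per 1000000 counts. The order in CpG CD103 high cells was Irgm1 (96.0 ± 25.1 RPKM, SD, n = 2), Iigp1 (53.5 ± 15.2), Tgtp1 (45.0 ± 19.0), Igtp (33.6 ± 15.4), Ifi47 (14.9 ± 5.92) and Irgm2 (14.2 ± 0.167). Iigp1, Tgtp1 and Igtp overlapped with their neighbours in this order, as did Ifi47 with Irgm2. In CD103 low cells the order was Irgm1 (29.4 ± 0.468 RPKM, SD, n = 2), Igtp (12.8 ± 0.271), Irgm2 (8.09 ± 1.54), Ifi47 (4.85 ± 0.718), Iigp1 (4.61 ± 1.49) and Tgtp1 (4.43 ± 0.249), the last 3 of them overlapping. In CD103 negative cells it was Irgm1 (29.1 ± 4.83 RPKM, SD, n = 3), Igtp (11.9 ± 1.70), Ifi47 (6.84 ± 0.130), Irgm2 (6.70 ± 1.78), Tgtp1 (4.66 ± 0.324) and Iigp1 (3.86 ± 0.951), and from Ifi47 down each overlapped with the next.

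Irgm1 was thus at the head of all 3 groups, while Iigp1 stood next to it in CpG CD103 high cells and last in CD103 negative cells. Of the summed RPKM of the 6 members, Iigp1 made up 20.4% and 21.3% in CpG CD103 high libraries, against 5.56% and 8.80% in CD103 low and 5.37%, 6.83% and 5.99% in CD103 negative libraries. Igtp made up 14.2% and 11.4% in CpG CD103 high libraries, against 19.6% and 20.1% in CD103 low and 20.5%, 19.2% and 17.0% in CD103 negative libraries.

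**Figure D3:**
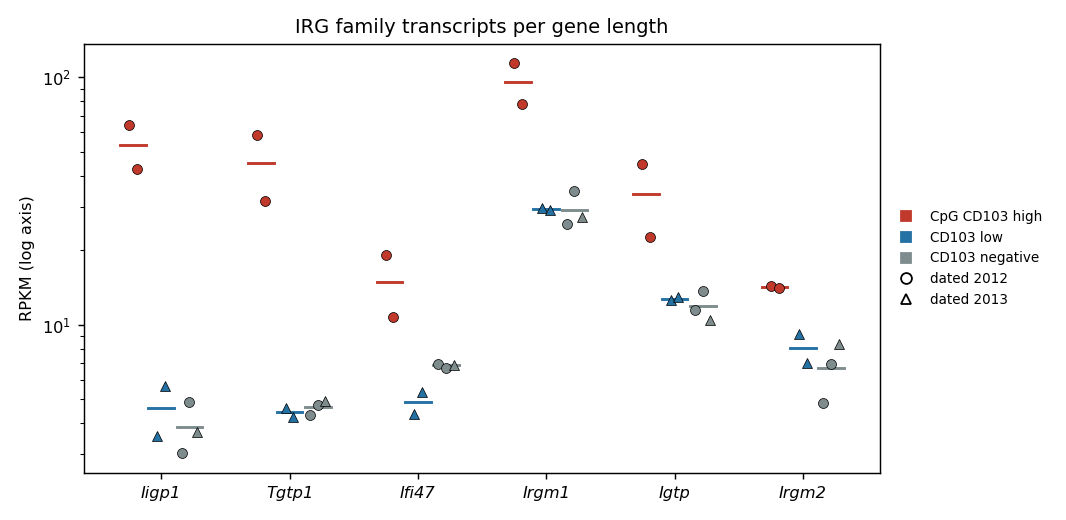
RPKM of the 6 IRG genes on a log axis, 1 point per library, with group means as lines. Irgm1 is highest in all groups, and Iigp1 and Tgtp1 lie above Igtp on average in CpG CD103 high cells and below it in untreated cells.

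Other genes of the IRG family also rose. The list held 24 names, which resolved to 12 further genes in the files, and 11 of these had a count. Of the 8 that were tested, Gm4951, F830016B08Rik and Gm5431 passed the filter on low counts through the CpG CD103 high libraries alone, so the filter favoured a difference in these 3. Of the other 5, which passed on untreated libraries, 4 rose in CpG CD103 high over CD103 negative cells and 0 fell. The median log2 fold change of these 5 was 1.89, and 14.5% of all genes tested were called higher. F830016B08Rik had 11 and 14 counts in CpG CD103 high libraries, against 1 and 0 in CD103 low and 0 in all CD103 negative libraries. With 3 counts per CD103 negative library as the floor it was at least 4.30-fold higher.

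Tgtp2, the near-identical neighbour of Tgtp1, had 482 and 252 counts in CpG CD103 high libraries, against 47 and 88 in CD103 low and 61, 76 and 71 in CD103 negative libraries (log2 fold change over CD103 negative 2.45, SE 0.33, adjusted p = 0.000689). Gm4951 had 91 and 78 counts in CpG CD103 high libraries, against 5 and 7 in CD103 low and 2, 5 and 5 in CD103 negative libraries (4.58, SE 0.37, adjusted p = 5.28e-05). Gm12185 had 107 and 72 counts in CpG CD103 high libraries, against 29 and 27 in CD103 low and 19, 12 and 35 in CD103 negative libraries (2.55, SE 0.30, adjusted p = 0.00037). In each of these genes the CpG CD103 high libraries lay above all untreated ones.

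Gm12250 (Irgb10), which in mouse macrophages acts on bacterial membranes, rose by 1.89 (SE 0.38, adjusted p = 0.00551), with 90 and 63 counts in CpG CD103 high libraries, against 34 and 19 in CD103 low and 12, 30 and 22 in CD103 negative libraries. 9930111J21Rik1 rose by 0.63 (SE 0.14, adjusted p = 0.00914), a call that DESeq2 did not make (adjusted p = 0.073) and that was lost without CD103 negative replicate 2 (0.55, adjusted p = 0.061). Gm5431 rose by 2.26 (SE 0.73, adjusted p = 0.0443) on 16 and 13 counts in CpG CD103 high libraries, against 6 and 1 in CD103 low and 5, 1 and 13 in CD103 negative libraries. Its call was lost without any one of CpG CD103 high replicates 1 and 2, CD103 low replicates 1 and 2 and CD103 negative replicates 1 and 2, where adjusted p lay between 0.0504 and 0.205, and also with DESeq2 (0.207) and without the date term (1.23, adjusted p = 0.298). Irgq, a distant relative of the family, had 89 and 79 counts in CpG CD103 high libraries, against 85 and 53 in CD103 low and 67, 58 and 86 in CD103 negative libraries, and was not called (0.46, SE 0.23, adjusted p = 0.163).

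The remaining genes were too scarce to test. Gm4841 had 11 and 3 counts in CpG CD103 high libraries, against 0 and 2 in CD103 low and 0 in all CD103 negative libraries. 9930111J21Rik2 and Gm18853 had at most 3 counts in any library, and the testis gene Irgc1 had 0 in all 7. In CpG CD103 high over CD103 low cells 3 genes were called higher, Tgtp2 (2.42, SE 0.58, adjusted p = 0.0388), Gm4951 (4.22, SE 0.97, adjusted p = 0.0342) and Gm12185 (2.77, SE 0.50, adjusted p = 0.014), and all 3 calls were lost when either CD103 low library was left out. That of Tgtp2 was also lost with DESeq2 (adjusted p = 0.0961), with limma voom (0.0667) and without CD103 negative replicate 1 or 2, and that of Gm4951 without CpG CD103 high replicate 2 or CD103 negative replicate 1. Gm4951 passed the filter through the CpG CD103 high libraries alone. Of the 5 genes that passed on untreated libraries 2 were called higher over CD103 low cells, where 3.44% of all genes tested were. In CD103 low over CD103 negative cells 0 of the 8 were called, where 0.138% of all genes tested were. Of the 8, 0 had an unadjusted p under 0.05 in edgeR there.

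**Figure D4:**
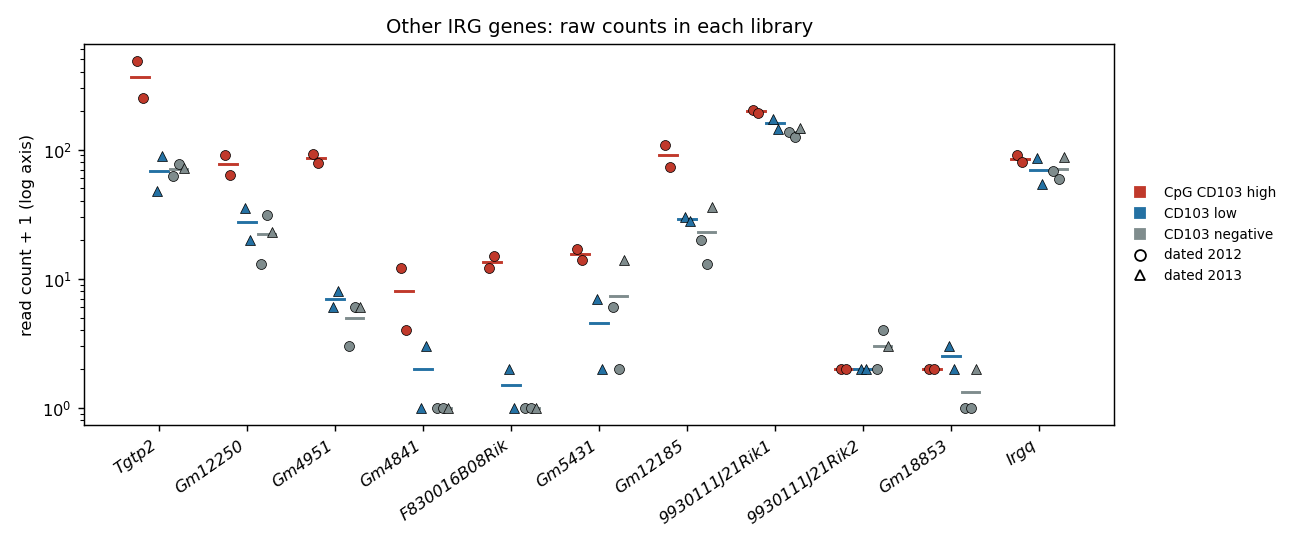
Raw counts plus 1, on a log axis, of the 11 other IRG genes with a count, 1 point per library, with group means as lines and the labelled year as the point's shape. Tgtp2, Gm12250, Gm4951 and Gm12185 lie higher in both CpG CD103 high libraries than in the untreated ones, and Irgq, 9930111J21Rik2 and Gm18853 overlap.

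Transcripts of the interferons themselves were nearly absent. Of 20 interferon genes in the files 17 had 0 counts in every library, among them Ifnb1 and all interferon alpha genes. Ifng had 0 counts in both CpG CD103 high libraries, against 0 and 2 in CD103 low and 0, 1 and 0 in CD103 negative libraries, and Ifnl3 and Ifnk had 1 count each in 1 library. Cytokines that induce interferon gamma in other cells were counted. Il18, a cytokine of that kind, fell to 13.6 ± 3.69 CPM in CpG CD103 high cells (SD, n = 2), against 24.0 ± 0.502 CPM in CD103 negative cells (n = 3; log2 fold change -0.83, SE 0.21, adjusted p = 0.0153). That call was lost with DESeq2 (adjusted p = 0.0732), without CpG CD103 high replicate 2 (adjusted p = 0.0907) and without CD103 negative replicate 1 or 2 (0.0611 and 0.0571). Il12b, the shared chain of interleukins 12 and 23, stood at 68.7 ± 4.59 CPM in CpG CD103 high, 58.4 ± 0.995 CPM in CD103 low and 49.4 ± 18.5 CPM in CD103 negative cells and was not called. Il12a had 0 counts in all libraries, and Il27 had 6 and 3 counts in CpG CD103 high libraries, against 2 and 7 in CD103 low and 1, 5 and 13 in CD103 negative libraries.

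The list of interferon receptors, which also held the interleukin receptor chains Il27ra and Il6st, showed no common direction. Of its 8 genes 1 rose and 2 fell in CpG CD103 high over CD103 negative cells. Over all genes tested 14.5% were called higher and 11.8% lower. Ifngr1, the ligand-binding chain of the interferon gamma receptor, stood at 1037 ± 15.8 CPM in CpG CD103 high and 964 ± 108 CPM in CD103 negative cells and was not called (0.06, SE 0.10, adjusted p = 0.684). Ifnar1, a chain of the type I receptor, rose by 0.40 (SE 0.09, adjusted p = 0.0105), and that call was lost when CpG CD103 high replicate 2 (adjusted p = 0.057), CD103 negative replicate 2 (0.0696) or the date term (0.24, adjusted p = 0.298) was left out. Il6st, the signal chain gp130 that serves interleukins 6 and 27, fell to 58.8 ± 10.7 CPM in CpG CD103 high, against 170 ± 48.3 CPM in CD103 negative cells (-1.28, SE 0.15, adjusted p = 0.000356). Ifnlr1, the lambda receptor chain, fell as well (-1.48, SE 0.36, adjusted p = 0.0134), a call lost when either CpG CD103 high replicate 1 (adjusted p = 0.0759) or CD103 negative replicate 1 (0.0896) was left out. In CpG CD103 high over CD103 low cells Il6st fell (-1.11, SE 0.23, adjusted p = 0.0215) and Ifnar1 rose (0.64, SE 0.14, adjusted p = 0.0293). The call of Il6st was lost without CD103 negative replicate 1 or CD103 low replicate 1. Ifnar1 was not called there with no term for date (0.21, adjusted p = 0.476), with DESeq2 (adjusted p = 0.0708) or when any 1 of CpG CD103 high replicate 2, CD103 negative replicate 2 and CD103 low replicates 1 and 2 was left out.

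JAKs, STATs and IRFs carry the signal to GAS and ISRE sites, and their list here also held Nlrc5 and Batf2. Of its 13 genes 10 rose and 0 fell in CpG CD103 high over CD103 negative cells, with a median log2 fold change of 0.80. Over all genes tested 14.5% were called higher in that comparison. Irf1, an interferon-induced factor that drives many of the GTPase genes, stood at 300 ± 20.9 CPM in CpG CD103 high and 173 ± 16.7 CPM in CD103 negative cells (0.87, SE 0.09, adjusted p = 0.000212). Stat3, which relays interleukins 6 and 10, rose by 0.80 (SE 0.09, adjusted p = 0.000263) and Nlrc5, the transactivator of MHC class I genes, by 1.25 (SE 0.11, adjusted p = 8.82e-05). Without the date term Nlrc5 stood at 0.86 and was not called (adjusted p = 0.0572). In CpG CD103 high over CD103 low cells 6 of the 13 rose, where 3.44% of all genes tested were called higher. Among the 6 were Irf1 (1.04, SE 0.14, adjusted p = 0.00474), Nlrc5 (1.45, SE 0.17, adjusted p = 0.00244) and Stat3 (0.77, SE 0.14, adjusted p = 0.0146). The count was 2 when either CD103 low library was left out, Stat3 then not being called, and Nlrc5 was not called there without the date term (0.49, adjusted p = 0.346).

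Brakes on the pathway were called in 2 of 9 cases in CpG CD103 high over CD103 negative cells, both higher. Of all genes tested 26.3% were called there, 14.5% in the upward direction. Socs1, the inhibitor of JAK kinases that interferon induces, stood at 25.6 ± 3.60 CPM in CpG CD103 high and 7.42 ± 1.57 CPM in CD103 negative cells (1.88, SE 0.24, adjusted p = 0.00059). Ptpn1, a phosphatase that acts on JAK2 and TYK2, rose by 0.75 (SE 0.11, adjusted p = 0.00088). Both also rose in CpG CD103 high over CD103 low cells (Socs1 1.87, SE 0.42, adjusted p = 0.0315, and Ptpn1 0.66, SE 0.17, adjusted p = 0.0484), and both of those calls were lost with DESeq2 and in fits that lacked any 1 of CpG CD103 high replicate 1, CD103 low replicate 1, CD103 low replicate 2 and CD103 negative replicate 2. That of Ptpn1 was also lost with limma voom (adjusted p = 0.0574) and without CD103 negative replicate 1.

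The guanylate-binding proteins are a second family of interferon-induced GTPases that act on the same vacuoles. In CpG CD103 high over CD103 negative cells 7 of 8 tested were called higher and 0 lower, with a median log2 fold change of 1.09. Over all genes tested 14.5% were called higher. With DESeq2 or without the date term 4 were called. Gbp9, the exception, was not called, and had 42.1 to 45.0 CPM in CpG CD103 high, against 77.0 to 88.1 CPM in CD103 low and 50.2 to 86.0 CPM in CD103 negative libraries. Gbp2b stood at 34.0 ± 0.860 CPM in CpG CD103 high and 2.16 ± 0.371 CPM in CD103 negative cells (3.88, SE 0.25, adjusted p = 1.53e-05). Gbp2 rose by 1.04 (SE 0.16, adjusted p = 0.00131) and Gbp8 by 1.72 (SE 0.22, adjusted p = 0.000538), which was not called without the date term (0.86, adjusted p = 0.247). Over CD103 low cells 4 of the 8 rose, and fewer when either CD103 low library was left out. In this comparison 3.44% of all genes tested were called higher. Gbp2 rose there by 1.48 (SE 0.26, adjusted p = 0.014), not called when either CD103 low library was left out, Gbp2b by 3.37 (SE 0.65, adjusted p = 0.0181), not called without CD103 low replicate 2 (adjusted p = 0.0569), and Gbp8 by 2.15 (SE 0.31, adjusted p = 0.00616), not called without the date term (0.38, adjusted p = 0.707).

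Genes of autophagy conjugation and of ubiquitin at the vacuole help to place the GTPases on their target membranes. They were called higher in 1 of 15 and 1 of 8 cases in CpG CD103 high over CD103 negative cells, with 0 lower. The share called higher over all genes tested was 14.5%. Atg16l1, a scaffold of the conjugation complex, rose by 0.80 (SE 0.17, adjusted p = 0.00681), a call that ended when the date term (0.56, adjusted p = 0.115) or CD103 negative replicate 2 (0.61, adjusted p = 0.0509) was left out. Trim21, a ubiquitin ligase, rose by 0.68 (SE 0.14, adjusted p = 0.00652). Over CD103 low cells Atg16l1 was again called (1.00, SE 0.26, adjusted p = 0.0492), but not without the date term, with DESeq2 or when any 1 library other than CD103 negative replicate 1 was left out, and Trim21 was not (0.55, SE 0.22, adjusted p = 0.169).

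In CD103 low over CD103 negative cells 0 genes of any of these lists were called by edgeR, DESeq2 or limma voom, and 3 had an unadjusted p under 0.05 in edgeR. With CD103 negative replicate 3 and the date term both left out, 3 were called higher and 1 lower. That fit called 1035 genes over all genes, against 15 in the main test. Its CD103 low and CD103 negative libraries carry different dates, so group and date cannot be told apart there. The values that follow are from the main test. The member of each list with the highest average log2 CPM stood at 0.14 for Irf8 (SE 0.09), -0.06 for Gbp9 (SE 0.14), 0.20 for Ifngr1 (SE 0.12), -0.20 for Ptpn6 (SE 0.10), 0.32 for the autophagy receptor Sqstm1 (SE 0.14), -0.15 for Tax1bp1 (SE 0.10), 0.48 for Il12b (SE 0.30) and 0.22 for 9930111J21Rik1 (SE 0.17), on the log2 scale.

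**Figure D5:**
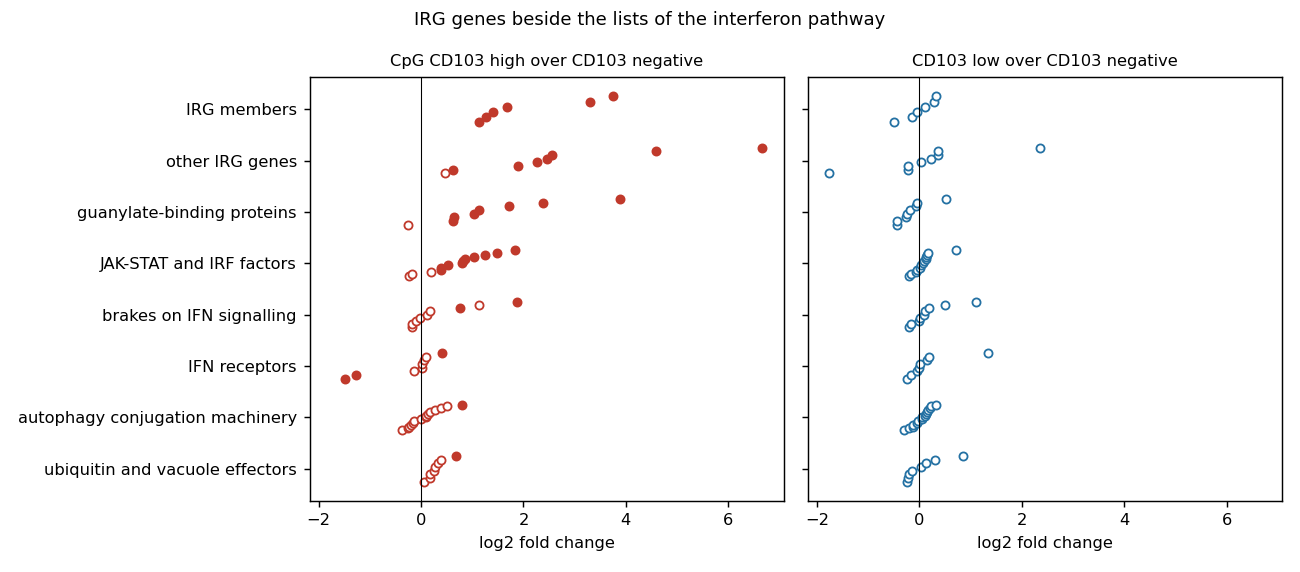
Log2 fold change of each tested gene by list, CpG CD103 high over CD103 negative on the left and CD103 low over CD103 negative on the right, with filled points for an adjusted p under 0.05. Filled points on the left lie to the right of 0 in all 8 lists plotted but the receptors, and the cytokine list is not plotted, and the right panel has 0 filled points. The point furthest right is F830016B08Rik, a fitted value against 0 counts that is no bound. Both panels share the CD103 negative libraries.

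Among the genes whose levels followed the mean of the standardized members most closely over the 7 libraries were Stx3 (Pearson r 0.990), a syntaxin of membrane fusion, the kinase gene Prkx (0.988), Zyx (0.987), which encodes the focal adhesion protein zyxin, the aminopeptidase gene Lap3 (0.986) and Ubash3b (0.984). They were among the 6 nearest of 7091 named genes outside the family, of which 301 had an r over 0.9, so such values are common where 2 libraries stand apart from 5. Zyx averaged 1255 CPM in CpG CD103 high, 417 CPM in CD103 low and 395 CPM in CD103 negative cells. Lap3 averaged 144 CPM in CpG CD103 high, 58.1 CPM in CD103 low and 59.6 CPM in CD103 negative cells.

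Summed markers of several other cell types differed between the groups as well. Summed T cell markers stood at 0.666 to 0.896 CPM in CpG CD103 high libraries, with Cd3e, Cd3g, Trbc2 and Thy1 at 0, against 3.41 to 36.6 CPM in CD103 low and 0.647 to 2.13 CPM in CD103 negative libraries. Summed NK cell markers, with Eomes at 0 in CpG CD103 high, stood at 3.59 to 5.10 CPM there, against 2.27 to 2.99 CPM in CD103 low and 0.439 to 2.34 CPM in CD103 negative libraries. All 4 erythroid markers rose in CpG CD103 high over CD103 negative cells, where 14.5% of all genes tested were called higher. Of these 4, 3 passed the filter on low counts through the CpG CD103 high libraries alone. The erythroid sums were 22.4 to 24.9 CPM in CpG CD103 high, against 5.52 to 14.5 CPM in CD103 low and 1.29 to 3.19 CPM in CD103 negative libraries. Monocyte and neutrophil markers summed to 43.0 to 72.8 CPM in CpG CD103 high, against 23.9 to 28.8 CPM in CD103 low and 16.9 to 70.0 CPM in CD103 negative libraries. Macrophage markers (222 to 231 CPM, with Mertk at 0), B cell markers (11.8 to 13.2 CPM, with Cd79a at 0) and cDC2 markers (14.1 to 23.1 CPM, with Cd209a at 0) were lower in CpG CD103 high libraries than in all untreated ones, where they ran from 318 to 404, 68.5 to 94.0 and 34.1 to 73.0 CPM. Summed plasmacytoid markers stood at 434 to 486 CPM in CpG CD103 high and 277 to 352 CPM in untreated libraries. That sum holds Irf7, which is also in the list of JAK, STAT and IRF genes. Irf7 alone stood at 290 to 321 CPM in CpG CD103 high, against 130 to 162 CPM in CD103 low and 126 to 172 CPM in CD103 negative libraries. Of the 5 plasmacytoid markers tested, 1 was called higher and 1 lower in CpG CD103 high over CD103 negative cells. Over all genes tested 14.5% were called higher and 11.8% lower there. Summed cDC1 markers stood at 24800 to 25073 CPM in CpG CD103 high, against 16787 to 19751 CPM in untreated libraries. The part of these cells in the IRG levels was not tested.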

How the data were processed

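Each sample's deposited file gives raw counts of reads by gene, without normalization, and a gene length in bases as an other column, per the file headers. CASAVA, Subread 1.4.6, featureCounts and the build mm10 are listed, without roles, per the submitters' processing notes. A table with 7 columns that match no sample label was not used. Entrez identifiers were matched to RefSeq symbols of GRCm38 (25275 of 27179 genes, 93.0%).

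The main test was edgeR 4.0.16 (R 4.3.3) on the counts: filterByExpr by group, TMM factors and a quasi-likelihood fit with group and date on all 7 libraries (3 residual degrees of freedom), with Benjamini-Hochberg adjustment over 10863 genes. It was tested on simulated data. SE is the log2 fold change divided by the root of the F statistic. CPM and RPKM use TMM-scaled library sizes, and a log2 CPM has a prior count of 2. With the date term CD103 low is compared with CD103 negative replicate 3, and CpG CD103 high with CD103 negative replicates 1 and 2. Alternatives used DESeq2 1.42.0 and limma 3.58.1. Open reading frames were aligned globally with Biopython 1.88, identity being counted over aligned bases.

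The members and lists were chosen with earlier results of these data known. Named genes are the 6 members, the family and interferon genes with a count, up to 3 called genes of each other list by adjusted p or its most abundant one, and the 6 closest by correlation among genes whose log2 CPM averaged 4 or more, of which 1 is not reported here. P-values set the difference between groups against the spread between these samples, which is estimated over all groups together. With the date term CD103 negative replicate 3 stands alone in its group and date and adds nothing to that spread.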

Additional observations from a re-analysis of the deposited data

How the results depend on the processing

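In CpG CD103 high over CD103 negative cells all 6 members were called under every alternative that kept all libraries except the test against a 1.5-fold change, where Ifi47 was not (5 called). Leaving out 1 library gave 5 to 6. In CpG CD103 high over CD103 low cells 4 were called, 2 with no filter on low counts or against 1.5-fold, 3 with DESeq2, 5 without the date term, and 2 to 6 when a library was left out, the lone library of a group then being assumed to vary like the others. In CD103 low over CD103 negative cells 0 were called under every alternative run. Directions there turned for Irgm2 without the date term (0.27) and, without CD103 low replicate 2, for Iigp1 (-0.045, and 0.62 without replicate 1) and Irgm2 (0.14, and -0.25 without replicate 1). With CD103 negative replicate 3 and date both left out they turned for Igtp (-0.013), Irgm1 (-0.063) and Irgm2 (0.43). The cause was not tested.

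Over all genes, 2860 calls in CpG CD103 high over CD103 negative became 1589 without the date term, 1459 with DESeq2 and 518 against 1.5-fold, and 1738 to 2861 without 1 library (at most 2290 where the date term was kept). The 676 calls over CD103 low became 263 without the filter, 382 with DESeq2 and 104 against 1.5-fold, and 115 to 1668 without 1 library (at most 748 with the date term). The 15 calls of CD103 low over CD103 negative became 1 without the filter, 40 with DESeq2, 3 against 1.5-fold and 187 in 2013 libraries alone, and 1 to 1035 without 1 library (at most 27 with the date term). With the replicate number as a block these became 31, while members called stayed at 6, 4 and 0. Deviations of same-numbered samples correlated at 0.168 between CpG CD103 high and CD103 negative. The values were -0.006 between CpG CD103 high and CD103 low and 0.002 between CD103 low and CD103 negative. Each group gave a lone difference between replicates, so these values cannot settle whether the numbers pair the samples. With no filter the calls of Irgm1, Irgm2, Tgtp2, Gm4951, Il6st, Ifnar1, Socs1, Ptpn1 and Atg16l1 over CD103 low were also lost. The pathway lists were run under the same alternatives, chosen after seeing the data.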
